A study of Tupaia belangeri with 15 samples.

Results

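The transcription factor genes ONECUT1, ONECUT2, ONECUT3, LHX1, LHX2, LHX3, LHX4 and LHX9 were followed through the cell classes and life stages of the tree shrew (TS) retina. The 8 genes were chosen by name among the 83605 features that each library lists. Nuclei of 15 TS retinas were profiled by droplet-based single-nucleus RNA-seq, with 5 retinas each of the groups labelled Infancy, Mature and Senile, which received no treatment. By the study's methods each retina came from another animal, and the senile animals came from a different institute than the infant and mature ones, so that stage and source cannot be told apart in any comparison with the senile group. The features were ONECUT1 (TSDBGID.21679), ONECUT2 (TSDBGID.7347), ONECUT3 (TSDBGID.27533), LHX1 (TSDBGID.9399), LHX2 (TSDBGID.13124), LHX3 (TSDBGID.13226), LHX4 (TSDBGID.10511) and LHX9 (TSDBGID.11025). The annotation also lists a numbered copy, ONECUT2li1 (TSDBGID.7715), whose reads may be split with ONECUT2 in a way that the counts cannot show, so levels of ONECUT2 are uncertain to that extent.

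ONECUT proteins carry a cut domain next to a homeodomain, and in the mouse they are known for the genesis and maintenance of horizontal cells (HCs), the interneurons that feed back onto photoreceptors. LIM-homeodomain (LHX) proteins bind the cofactor LDB through their LIM domains. In the mouse retina LHX1 is known from HCs, LHX2 from progenitors and Müller cells, LHX3 and LHX4 from bipolar cells (BCs) with LHX4 also in cones, and LHX9 from amacrine cells (ACs). The questions here were in which cell classes of the TS retina each gene was counted, whether subtypes within a class differed, and whether the levels moved between the stages.

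The libraries held 13429873 to 58734300 counts of unique molecular identifiers (UMIs), and 111825 nuclei were kept after filters. Clusters were built without the 8 genes and named from marker genes that include none of them, which gave 86275 nuclei in 9 classes and left 25550 nuclei unnamed. HCs were 1 cluster of 1360 nuclei, present in all 15 retinas with 16 (Mature 4) to 179 (Senile 5) nuclei. A further 110 nuclei of this cluster were removed as doublets, 56 of them in Mature 4. The listed markers named this cluster, so their levels describe it and are no test of the name. It held 735 CPM of CALB1 (counts per 1000000 UMIs) against 237 in cones, the next class, 734 of MEGF11 against 50.1, 383 of TMOD1 against 9.36 and 236 of NDRG1 against 88.2. Other listed HC markers were low, with 7.72 CPM of PVALB, 7.35 of RET and 0.188 of ADRA2A, each lower than in another class. SOSTDC1 and SEPTIN4 stood at 5.09 and 4.90 CPM, and MEGF10, at 270 CPM, was below the 302 CPM of astrocytes. Markers of other classes were also counted in HCs. The BC genes TRPM1 and GRM6 stood at 36.4 and 3.77 CPM in HCs against 456 and 33.2 CPM in BCs, the microglial gene AIF1 at 0.754 against 89.1 CPM, and the AC gene GAD1 at 1.13 against 4.08 CPM. TFAP2A and TFAP2B are markers of both ACs and HCs, with 68.6 and 316 CPM in HCs and 190 and 210 CPM in ACs. Of the 1360 HC nuclei, 37 had a barcode that also occurred in another library, and 0 barcodes occurred in HCs of 2 libraries. Summed KDM5D, USP9Y and DDX3Y, which are Y-linked, lay between 78.0 and 104 CPM in 7 retinas and were at most 0.321 CPM in the others, which went against the recorded sex in 9 of 15 retinas.

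ONECUT1, ONECUT2, ONECUT3 and LHX1 had their highest mean level in HCs, which held the maximum of 7.5% of the 18771 features that reached 5 CPM in a class. Levels are UMIs of the gene scaled to CPM of all UMIs of the class in a retina, and tests compared log2(CPM + 1) of neighbouring classes in the order of their mean log2 level, within retinas, by a 2-sided exact sign-flip permutation test with Benjamini-Hochberg adjustment over 64 pairs. ONECUT1 stood at 603 ± 141 CPM in HCs (SD, n = 15). The Infancy retinas held 584, 562, 500.0, 674 and 805 CPM from replicate 1 to 5, the Mature retinas 648, 509, 673, 442 and 916 CPM, and the Senile retinas 419, 430.3, 545, 703 and 643 CPM. The lowest HC value, 419 CPM, was above the highest value of every other class. Retinal ganglion cells (RGCs), the output neurons of the retina, came next at 70.1 ± 18.1 CPM, with a lowest value of 38.3, a median of 66.7 and a highest of 109 CPM. In 15 of 15 retinas HCs exceeded RGCs, with a log2 difference of 3.10 ± 0.34 (SD) (adjusted p = 0.000558, exact sign flips), where 10.8% of 7497 features were higher in HCs in every retina. RGCs exceeded ACs, at 5.24 ± 1.75 CPM, in 15 of 15 retinas with a log2 difference of 3.53 (adjusted p = 0.000558, exact sign flips; 17.6% of 7426 features were higher in RGCs in every retina). ACs exceeded BCs, at 2.14 ± 1.01 CPM, by 1.00 in 14 of 15 retinas (adjusted p = 0.00217, exact sign flips). Below BCs no pair of neighbours passed the threshold, with 5.16 CPM in microglia from 16 UMIs as the highest mean there.

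ONECUT2 was also highest in HCs, and BCs came next. It reached 345 ± 113 CPM in HCs. The Infancy retinas held 227, 267, 213, 341 and 532 CPM, the Mature retinas 326, 324, 344, 258 and 592 CPM, and the Senile retinas 273, 414, 225, 406 and 442 CPM. The 3 groups overlapped, and Infancy 5 and Mature 5 were the highest. BCs, which relay photoreceptor signals to RGCs, followed at 15.1 ± 11.8 CPM, 4.63 below HCs on the log2 scale in 15 of 15 retinas (adjusted p = 0.000558, exact sign flips; 11.5% of 7215 features were higher in HCs in every retina). RGCs came after BCs at 8.48 ± 5.06 CPM, 0.67 below BCs (14 of 15 retinas, adjusted p = 0.00284, exact sign flips), and ACs stood at 6.42 ± 5.10 CPM, 0.43 below RGCs (12 of 15 retinas, adjusted p = 0.0951). Microglia held 7.65 ± 10.4 CPM from 20 UMIs, a higher mean CPM than ACs. In mean log2 level microglia were 0.68 below ACs (10 of 15 retinas, adjusted p = 0.531, exact sign flips). The copy ONECUT2li1 followed the same order of HCs and BCs, with 588 ± 112 CPM in HCs, 35.4 ± 8.92 in BCs and 17.6 ± 4.55 in RGCs.

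ONECUT3 and LHX1 were sparse and nearly limited to HCs. ONECUT3 was at 18.6 ± 17.0 CPM in HCs from 107 UMIs in all, with a lowest value of 0, a median of 14.9 and a highest of 60.6 CPM. Infancy 1, Infancy 2 and Senile 1 had no ONECUT3 UMI in HCs. The next class, ACs, held 0.189 CPM (21 UMIs in 30689 nuclei), and the difference of 3.26 on the log2 scale had HCs higher in 12 of 15 retinas (adjusted p = 0.00284, exact sign flips). LHX1, a LIM-homeodomain gene known from HC positioning, was at 27.6 ± 13.4 CPM in HCs from 162 UMIs. The Infancy retinas held 29.4, 16.2, 17.2, 41.2 and 47.1 CPM, the Mature retinas 23.9, 34.7, 39.6, 24.6 and 53.9 CPM, and the Senile retinas 9.74, 8.28, 25.9, 19.3 and 22.9 CPM. No other class passed 1.23 CPM, the value of astrocytes, which rested on 2 UMIs in 1 retina. HCs exceeded astrocytes in 15 of 15 retinas, by a log2 difference of 4.39 (adjusted p = 0.000558, exact sign flips; 10.1% of 7704 features were higher in HCs in every retina). HCs held 77.5% of the LHX1 UMIs and 71.3% of the ONECUT3 UMIs of all kept nuclei, although they were 1360 of 111825 nuclei. For ONECUT1 the HC share was 45.0%, with 33.8% in RGCs, and for ONECUT2 it was 37.6%, with 23.9% in BCs.

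**Figure D1:**
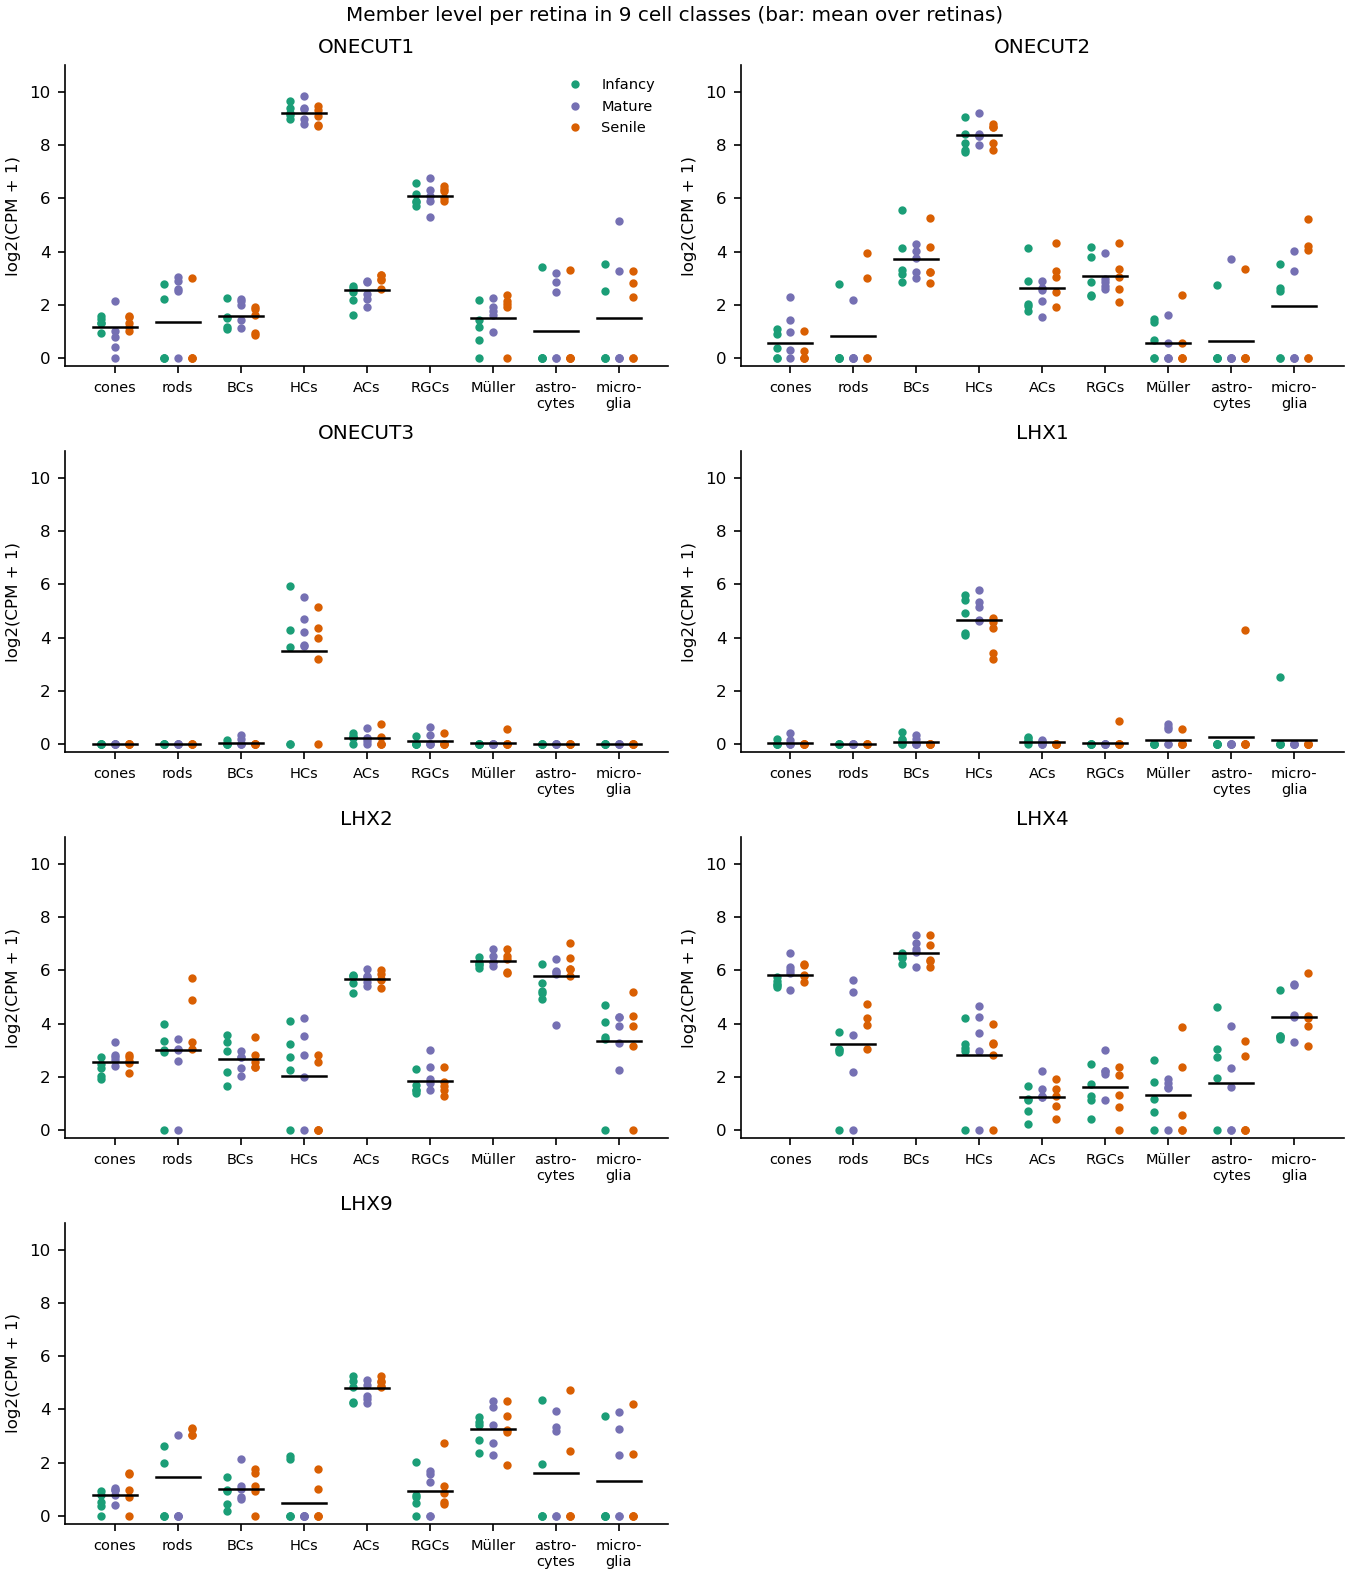
Level of 7 genes, as log2(CPM + 1), in 9 cell classes, with 1 point per retina coloured by stage and a bar at the mean over retinas; LHX3 had no UMI and is not drawn. ONECUT1, ONECUT2, ONECUT3 and LHX1 stood highest in HCs, LHX2 in Müller cells, LHX4 in BCs and LHX9 in ACs.

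The other LHX genes were low in HCs and led elsewhere. Among the named classes LHX2 was highest in Müller cells, the radial glia of the retina, at 81.2 ± 15.9 CPM (lowest 58.8, median 78.7, highest 111). Astrocytes held 59.8 ± 27.9 CPM and ACs 50.7 ± 8.60 CPM. The steps from Müller cells to astrocytes (0.57 on the log2 scale, 12 of 15 retinas, adjusted p = 0.0637, exact sign flips) and from astrocytes to ACs (0.09, 11 of 15 retinas, adjusted p = 1) did not pass. ACs exceeded microglia, at 13.2 ± 9.25 CPM, by 2.33 in 15 of 15 retinas (adjusted p = 0.000558, exact sign flips; 12.2% of 8362 features were higher in ACs in every retina). HCs held 5.45 ± 5.67 CPM of LHX2 from 34 UMIs. By number of nuclei ACs carried most of it, with 52.5% of all LHX2 UMIs against 25.8% in unnamed nuclei and 12.1% in Müller cells. An unnamed cluster of 1963 nuclei led by SLC26A4 and MECOM held 113 CPM of LHX2 and 34.2 CPM of LHX9. Another of 661 nuclei led by ABI3BP and SLC2A12 held 105 and 61.6 CPM. Both clusters stayed unnamed because of their score for markers of other tissue, so their place in the neural retina is open.

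LHX4, known in the mouse from cones and cone BCs, was highest in BCs at 102 ± 29.0 CPM (lowest 67.9, median 97.2, highest 158). Cones followed at 57.0 ± 16.3 CPM (lowest 36.9, median 53.4, highest 98.7). The ranges overlapped between retinas, while within a retina BCs exceeded cones in 15 of 15, by 0.83 ± 0.22 on the log2 scale (adjusted p = 0.000558, exact sign flips), and 28.4% of 7565 features were higher in BCs in every retina. Microglia came next at 21.8 ± 15.8 CPM from 35 UMIs, 1.58 below cones (14 of 15 retinas, adjusted p = 0.00146, exact sign flips), then rods at 14.0 ± 13.9 CPM and HCs at 9.21 ± 7.03 CPM. The step from microglia to rods was 1.03 on the log2 scale over 14 retinas and did not pass (adjusted p = 0.127, exact sign flips). The microglial value came almost wholly from 1 of the 2 microglial clusters, which had 97.1% of these UMIs and 28.9 CPM of LHX4 in 378 nuclei against 1.17 CPM in the 531 nuclei of the other. The first cluster also held more of the BC genes GRIK1li1 (2633 against 235 CPM) and TRPM1 (66.3 against 8.19 CPM), and of ONECUT1 (12.8 against 1.17 CPM), ONECUT2 (14.5 against 3.51 CPM) and LHX2 (17.9 against 5.85 CPM). The part of RNA from other cells in the microglial values was not tested. Among the named classes LHX9 was highest in ACs at 27.6 ± 6.84 CPM (lowest 17.8, median 28.4, highest 37.4). Müller cells followed at 9.80 ± 5.16 CPM, 1.52 lower in 15 of 15 retinas (adjusted p = 0.000558, exact sign flips; 30.5% of 7943 features were higher in ACs in every retina), and astrocytes at 5.62 ± 8.25 CPM, 1.67 below Müller cells in 13 of 15 retinas (adjusted p = 0.0267, exact sign flips). HCs held 0.701 CPM of LHX9 from 5 UMIs. In all, 12 of the 64 neighbour differences passed. The 64 include the pairs of LHX3, which had no UMI and could not pass, and the order of classes came from the same values. The share of all features that pass such a test was not counted, so the number of calls is a description.

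LHX3 was not detected. Its feature is listed in each library, but it had 0 UMIs in 111825 nuclei and 388086399 UMIs, which allows a share of up to 0.00268% of nuclei with a UMI and a level of 0.00773 CPM, for counting error only. In BCs alone, 0 of 62180574 UMIs allow up to 0.048 CPM.

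Detection was also read in single HC nuclei. Of 1360 HC nuclei, with a median of 2730 UMIs, 76.9% had a UMI of ONECUT1 and 57.6% of ONECUT2. Both were counted in 48.0% of nuclei, ONECUT1 alone in 28.9%, ONECUT2 alone in 9.56% and neither in 13.5%. LHX1 was counted in 9.93% of the nuclei (135 nuclei). To compare classes of unequal depth, each nucleus with at least 1000 UMIs was thinned to 1000, which left out 48 HC nuclei and 306 of 909 microglia. Thinned, ONECUT1 was counted in 43.8% of HC nuclei, ONECUT2 in 26.4%, LHX1 in 2.52% and ONECUT3 in 1.60%. ONECUT1 was counted in 91.9% of the unthinned nuclei with LHX1 and in 76.9% of all, and at equal depth in 12 of 33 (36.4%) and in 43.8%, so that joint detection of the 2 genes was not higher at equal depth. Over retinas the thinned share of ONECUT1 ran from 27.9% in Mature 2 to 65.9% in Mature 5. In microglia, a class that should lack these genes (median 1562 UMIs), the thinned shares were 0.332% for ONECUT1, 0.498% for ONECUT2 and 0 of 603 nuclei for LHX1 and ONECUT3, which allows up to 0.498%. The thinned share of ONECUT1 was 6.41% in RGCs (27.3% unthinned, median 5352 UMIs), 0.551% in ACs (1.51% unthinned) and 0.171% in BCs (0.509% unthinned, median 1985 UMIs). The BC share rests on 38 of 22172 nuclei and that of microglia on only 2 of 603, so these shares cannot be put in order. ONECUT2 was counted in 1.75% of thinned BC nuclei (4.18% unthinned), LHX4 in 9.13% of BCs and 5.86% of cones (18.4% and 20.7% unthinned) against 1.49% of microglia (3.30% unthinned), LHX2 in 7.32% of Müller cells (16.7% unthinned) and 4.85% of ACs (10.9% unthinned) against 0.995% of microglia (2.31% unthinned). The microglial shares pool both microglial clusters, of which 1 carried most of the LHX4 UMIs.

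Many mammals have more than 1 type of HC, named H1 and H2 in primates, where ISL1, a further LIM-homeodomain gene, marks H2. The mouse has 1 type. HC nuclei with an ISL1 UMI (225 nuclei) were set against those with MEGF11 and without ISL1 (874 nuclei), within the 8 retinas with at least 10 nuclei of both. ONECUT1 was lower in the ISL1+ nuclei in 8 of 8 retinas, by 0.56 ± 0.23 on the log2 scale (adjusted p = 0.0347 over 40 gate differences, exact sign flips). In the ISL1+ nuclei it stood at 461, 495 and 591 CPM in Infancy 1, 4 and 5, at 363 and 580 CPM in Mature 1 and 3, and at 285, 602 and 524 CPM in Senile 1, 4 and 5. In the ISL1- nuclei of the same retinas the values were 558, 770 and 874 CPM, then 727 and 766 CPM, then 484, 812 and 703 CPM. ONECUT2 was lower by 0.94 ± 0.30 in 8 of 8 retinas (adjusted p = 0.0347, exact sign flips), with a mean of 214 CPM in ISL1+ nuclei over these retinas and 397 CPM over the 14 retinas with ISL1- nuclei. In every retina 5.29% of 6715 features were lower in the ISL1+ nuclei. LHX1 was at 6.80 CPM (9 UMIs, 8 retinas) against 37.4 CPM (140 UMIs, 14 retinas), a difference of 3.07 that did not pass (adjusted p = 0.0852, exact sign flips), and ONECUT3 at 5.19 CPM (10 UMIs) against 25.3 CPM (90 UMIs) over the same retinas, a difference of 2.28 (adjusted p = 0.0962). LHX4, highest in BCs, was at 20.9 ± 34.5 CPM (14 UMIs) in ISL1+ and 6.88 ± 6.80 CPM (19 UMIs) in ISL1- nuclei (adjusted p = 0.867, exact sign flips), and ISL1 itself was highest in BCs, at 275 CPM against 71.7 in HCs. The part of BC RNA in the ISL1+ gate was not tested.

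These gates rest on few nuclei, and ISL1+ nuclei were deeper, with a median of 5522 UMIs against 2582. The smallest p that 8 retinas allow is 0.00781 before adjustment and that 7 allow is 0.0156, and leaving out any 1 of the 8 retinas ended both calls, at adjusted p between 0.0568 and 0.0694 (exact sign flips), with differences of -0.50 or below for ONECUT1 and of -0.87 or below for ONECUT2. In an alternative chosen after seeing the data, among nuclei with at least 3000 UMIs, the differences were -0.41 and -0.69 over 5 retinas (adjusted p = 0.192 and 0.278, exact sign flips), where no difference could pass, since the smallest p that 5 retinas allow is 0.0625 before adjustment.

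BCs split into ON and OFF types by their glutamate receptors. ON nuclei were taken as those with a UMI of TRPM1 or GRM6 and fewer than 5 of GRIK1li1 (10765 nuclei), and OFF nuclei as those with at least 5 UMIs of GRIK1li1 and neither TRPM1 nor GRM6 (4864 nuclei). The plain feature GRIK1 had 13 UMIs in all BCs and could not serve. LHX4 was lower in ON nuclei in 15 of 15 retinas, with 77.7 ± 25.7 CPM (lowest 38.7, median 75.8, highest 131) against 155 ± 49.9 CPM in OFF nuclei (lowest 101, median 141, highest 262). The difference was 1.00 ± 0.27 on the log2 scale (adjusted p = 0.00163, exact sign flips), and 8.58% of 6737 features were lower in ON nuclei in every retina. ONECUT2 went the other way, with 20.5 ± 16.2 CPM in ON nuclei and 7.05 ± 6.48 CPM in OFF nuclei, a difference of 1.61 in 14 of 15 retinas (adjusted p = 0.00293, exact sign flips). With OFF nuclei taken from 1 UMI of GRIK1li1, an alternative chosen after seeing the data, the ONECUT2 difference was 1.16 and did not pass (adjusted p = 0.0659, exact sign flips).

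Cones in the TS outnumber rods by far and come in S and L types. S-cones, with more OPN1SW than OPN1LW UMIs (416 nuclei), held 118 ± 33.1 CPM of LHX4 (lowest 74.5, median 108, highest 186). L-cones (11139 nuclei) held 54.7 ± 16.6 CPM (lowest 32.9, median 51.0, highest 96.4). S-cones were higher in 14 of 14 retinas, by 1.12 ± 0.45 on the log2 scale (adjusted p = 0.00163, exact sign flips), where 2.22% of 6611 features were higher in S-cones in every retina. ONECUT1 and ONECUT2 were at 1.90 CPM (4 UMIs) and 0.190 CPM (1 UMI) in S-cones.

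Among ACs, glycinergic nuclei (SLC6A9 without GAD1, 8395 nuclei) held 70.9 ± 16.3 CPM of LHX2 and GABAergic nuclei (GAD1 without SLC6A9, 365 nuclei) 10.2 ± 6.80 CPM. Glycinergic nuclei were higher in 14 of 14 retinas, by 3.18 ± 1.64 on the log2 scale (adjusted p = 0.00163, exact sign flips; 3.98% of 7265 features were higher in glycinergic nuclei in every retina). By cluster the 2 genes did not always go together. A cluster of 361 nuclei with 1036 CPM of SLC6A9 held 2.87 CPM of LHX2, and a cluster of 2133 nuclei with 570 CPM held 2.29. The 2 AC clusters highest in LHX2, at 391 and 306 CPM, held 352 and 57.9 CPM of SLC6A9. ONECUT1 stood in glycinergic and GABAergic nuclei at 8.07 ± 4.72 and 2.56 ± 3.87 CPM (5 UMIs). It was higher in the former in 12 of 14 retinas (1.94, adjusted p = 0.00628, exact sign flips). As 9 of the 14 GABAergic values were 0, any glycinergic UMI made the difference positive there, so its size is uncertain. The cluster of 361 nuclei above held 135 CPM of ONECUT1, against a median of 3.49 CPM over the 50 AC clusters. Its part in the glycinergic level was not tested. LHX4 had 59 UMIs in glycinergic nuclei (1.91 CPM) and 0 in the far fewer GABAergic nuclei, where a count of 0 allows up to 1.63 CPM over the pooled retinas. The log2(CPM + 1) difference is then positive wherever the glycinergic side has a UMI, so this call, although 1 of the 9 past the threshold, is not read as a difference. LHX9 did not pass, at 15.4 ± 5.22 CPM in glycinergic and 30.9 ± 25.3 CPM in GABAergic nuclei (adjusted p = 0.84, exact sign flips). Named AC nuclei with CHAT, the enzyme that makes acetylcholine and a marker of starburst ACs, held 14.0 ± 11.5 CPM of LHX9 against 28.1 ± 6.85 CPM in other ACs, lower in 13 of 15 retinas, by a log2 difference of 1.59 (adjusted p = 0.00628, exact sign flips). The gates were laid out on GAD1 and GAD2, but GAD2 had 0 CPM in every cluster and GAD1 was at 4.08 CPM in ACs, so the GABAergic gate rested on GAD1 and took a small part of the 30689 ACs, and a cluster of 2426 nuclei led by MEGF11 that lay nearest to ACs stayed unnamed and outside these gates. In it LHX2 stood at 2.10 CPM and LHX9 at 0.574 CPM, while ONECUT1 at 13.0 CPM, ONECUT2 at 18.0 and ONECUT2li1 at 33.0 were higher than the means of the named ACs (5.24, 6.42 and 7.93 CPM). This cluster also had the highest CHAT level of the 173 clusters, at 244 CPM in 1412 nuclei with a UMI, so the CHAT gate left out the cluster richest in CHAT and its levels are not a value for starburst ACs as a whole. Of the 1387 nuclei in the gate 684 lay in a single AC cluster, led by CNTN5 and EBF3, with 187 CPM of CHAT and 0.404 CPM of LHX9.

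**Figure D2:**
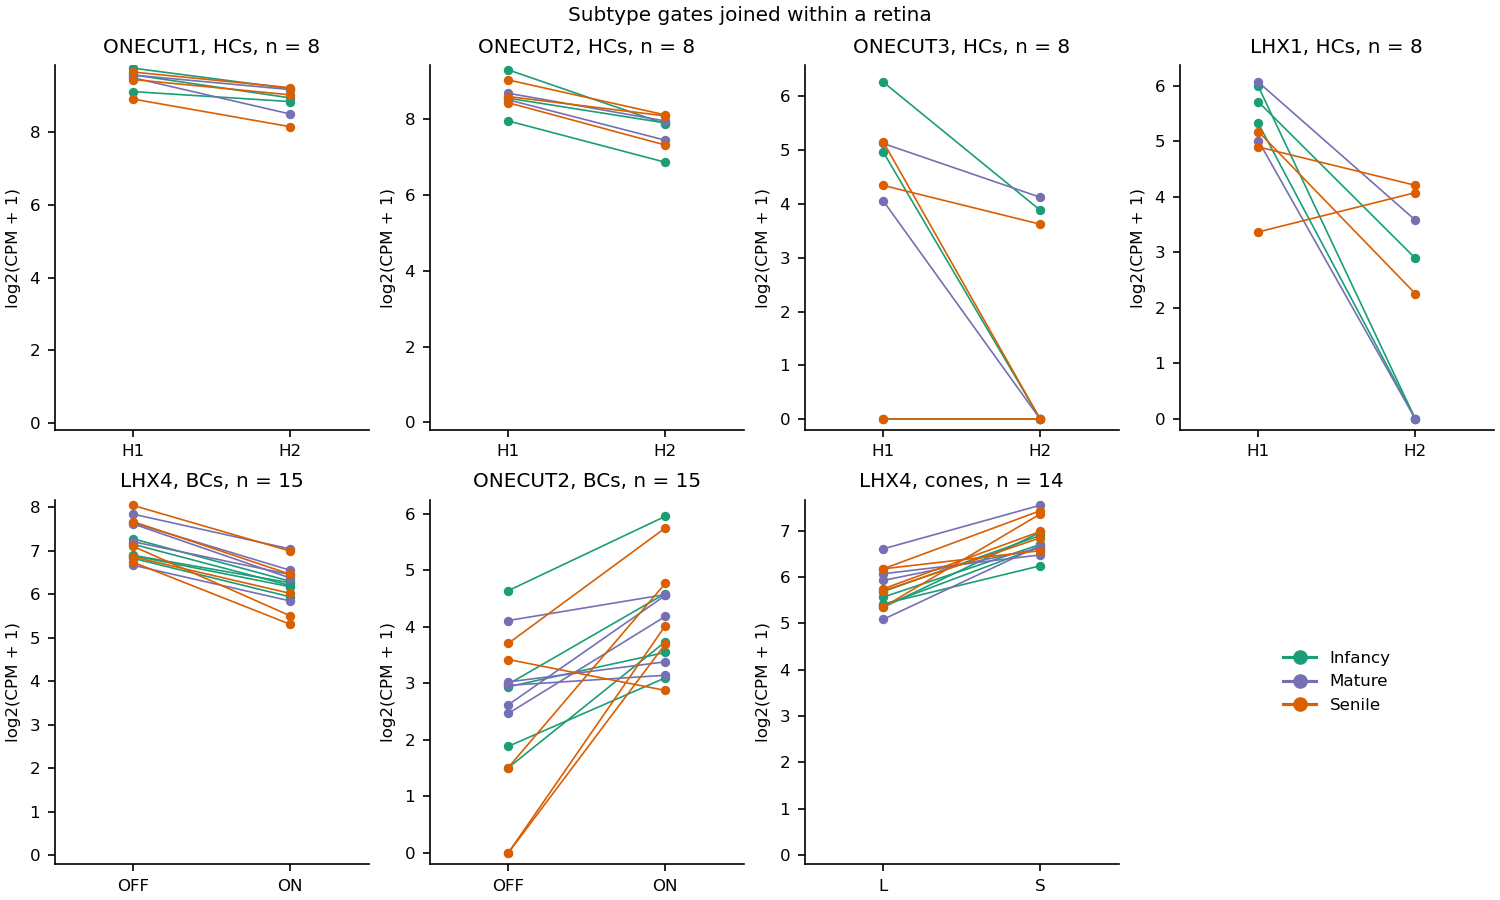
Level of 4 genes in HC gates, of LHX4 and ONECUT2 in BC gates and of LHX4 in cone gates, as log2(CPM + 1), with the 2 gates of a retina joined by a line coloured by stage. All lines fell from H1 (ISL1-) to H2 (ISL1+) for ONECUT1 and ONECUT2 and from OFF to ON for LHX4, and all rose from L to S for LHX4.

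Clusters within a class showed how unevenly the genes were spread. Clusters were made without the 8 genes, and their values, pooled over the nuclei of all retinas, are given as descriptions. LHX2 reached 20 CPM in 10 of 50 AC clusters, which held 93.0% of the LHX2 UMIs of ACs in 7338 of 30689 nuclei. The highest level, 391 CPM, was in a cluster of 1831 nuclei led by NXPH1, CYYR1 and SLC17A8, the vesicular glutamate transporter of a glycinergic AC type, and the next, 306 CPM, in a cluster of 1629 nuclei led by KCNT2 and IFI44. LHX9 reached 20 CPM in 14 of 50 AC clusters with 93.1% of its AC UMIs, and 9 of these were also among the LHX2 clusters. By the mean over retinas with at least 10 nuclei, 10 clusters reached 20 CPM of LHX2, 13 of LHX9 and 8 of both. Its highest levels were 181 CPM in a cluster led by PDGFRA, CBLN1 and TACR1 (5.53 CPM of LHX2), 117 CPM in a cluster led by GRM3 (78.0 CPM of LHX2), 113 CPM in a cluster led by NELL1 (1.19 CPM of LHX2) and 96.4 CPM in a cluster led by ANKFN1 and NPY (8.74 CPM of LHX2). Over the 50 clusters, which share libraries and differ in depth, log2(CPM + 1) of LHX2 and LHX9 had a Pearson r of 0.578. ONECUT1 reached 135 CPM in 1 AC cluster of 361 nuclei led by CCBE1, with 1036 CPM of the glycine transporter SLC6A9, where the mean of ONECUT1 over retinas was 117 ± 90.4 CPM. Of the 50 AC clusters 3 reached 20 CPM of ONECUT1 when pooled, but only this 1 by the mean over retinas.

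LHX4 reached 20 CPM in 19 of 25 BC clusters and was below 10 CPM in the other 6. The 3 highest values were 209 CPM in a cluster of 3377 nuclei led by GABRR3 and FNDC1, with 45608 CPM of GRIK1li1, 183 CPM in a small cluster of 139 nuclei led by SLC24A4 and GABRR3, with both 22366 CPM of GRIK1li1 and 358 of TRPM1, and 180 CPM in a cluster of 3898 nuclei led by PTPRQ and PDE1A, with 593 CPM of TRPM1. The 6 low clusters included a cluster of 3008 nuclei led by HS3ST4 and PCP4 (2.55 CPM of LHX4, 767 of TRPM1) and a cluster of 1244 nuclei led by PTPRQ and RELN (1.52 CPM of LHX4, 507 of TRPM1). High and low LHX4 thus both occurred among clusters with TRPM1. An unnamed cluster of 4208 nuclei that lay nearest to BCs, led by COL19A1 and TAFA4 and with 44106 CPM of GRIK1li1, held 131 CPM of LHX4. ONECUT2 reached 20 CPM in 5 of 25 BC clusters, which held 74.0% of its BC UMIs. By the mean over retinas, which differed in ONECUT2 in BCs with the version of Cell Ranger (given further on), 4 clusters reached it. The highest were 107 CPM in a cluster of 1432 nuclei led by PDE1A and ADARB2 and 82.9 CPM in a cluster of 1302 nuclei led by KCNH7 and SDK1, and in both the copy ONECUT2li1 was also high, at 178 and 202 CPM. Over retinas the ONECUT2 means of these clusters were 75.7 ± 65.5 CPM (0 to 241) and 61.2 ± 46.2 CPM (16.8 to 169). Other clusters with TRPM1 were low in ONECUT2, with 3.23 CPM in that led by HS3ST4 and PCP4 and 6.07 CPM in that led by PTPRQ and RELN. The GRIK1li1 cluster led by GABRR3 and FNDC1 held 10.9 CPM. In all 5 cone clusters LHX4 lay between 49.3 and 68.0 CPM.

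**Figure D3:**
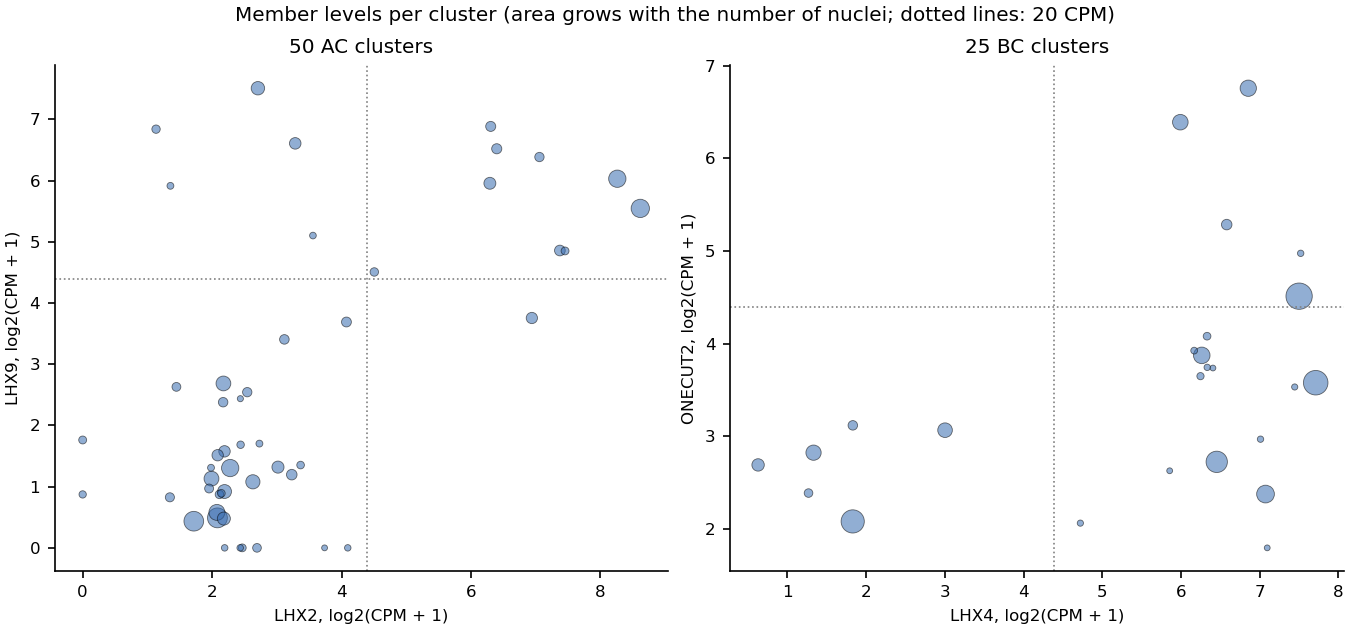
Level per cluster as log2(CPM + 1), pooled over retinas, LHX9 against LHX2 in 50 AC clusters on the left and ONECUT2 against LHX4 in 25 BC clusters on the right; area grows with the number of nuclei and dotted lines mark 20 CPM. At 20 CPM, 9 of the 10 AC clusters with LHX2 also had LHX9, which 14 of all 50 AC clusters had. All 5 BC clusters with ONECUT2 had LHX4, which 19 of all 25 BC clusters had, 14 of them without ONECUT2.

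ONECUT1 was present in most RGC clusters and reached 20 CPM in 7 of 8. Its level was 312 CPM in a cluster of 110 nuclei led by STK32A and TBX20, 126 CPM in a cluster of 783 nuclei led by SLC17A6 and ELAVL2, 83.8 CPM in a cluster of 810 nuclei led by LAMA4 and RUNX1, and 7.23 CPM in a cluster of 391 nuclei led by CHSY3 and ANO3. By single markers chosen after seeing the data, RGC nuclei with EOMES, a gene of intrinsically photosensitive RGCs, held 156 ± 63.3 CPM (n = 10 retinas) against 66.1 ± 15.5 CPM without it (n = 15). Nuclei with RUNX1 held 107 ± 26.5 CPM (n = 13) against 66.9 ± 16.6 CPM, and nuclei with FOXP2 45.4 ± 13.0 CPM (n = 13) against 76.1 ± 20.0 CPM. The contrast was smaller for SLIT2, with 61.2 ± 18.3 CPM against 75.8 ± 22.7 CPM without it (n = 15), and for SPP1, with 70.6 ± 31.8 CPM (n = 11) against 68.8 ± 18.3 CPM. These gates were not tested.

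The genes whose levels followed each member most closely over 134 class-by-retina values, among 7638 genes with at least 20 CPM in a class mean, are given as a description, since the points share libraries and the class means dominate. ONECUT1 was followed by PPP1R1C (r = 0.88), PMFBP1 (0.87) and B3GAT2 (0.84), ONECUT2 by TNR (0.83), TMEFF2 (0.83) and TPH2 (0.82), LHX1 by CFAP58 (0.90), OPRK1 (0.87) and FAM135A (0.86), and ONECUT3 by LHX1 itself (0.86), CFAP58 (0.83) and PMFBP1 (0.80). All of these were highest in HCs. LHX2 was followed by ST8SIA2 (0.78), TNS1 (0.78) and CPM (0.77, the carboxypeptidase gene), which were highest in Müller cells, LHX4 by CACNA1H (0.81), TAFA3 (0.80) and PLXDC1 (0.77), which were highest in BCs, and LHX9 by SYT10 (0.63) and FRMD5 (0.62), highest in ACs, and LUZP2 (0.62), highest in Müller cells.

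Relatives and partners of the members were read in HCs from lists of relatives, cofactors and specification genes. Among the cut-homeodomain relatives, CUX2 was at 497 ± 120 CPM and highest in HCs, while SATB1, at 26.9 ± 12.9 CPM in HCs, was highest in RGCs (233 CPM). Of the genes known from HC and AC specification, PROX1 (571 ± 102 CPM) and TFAP2B (303 ± 63.5 CPM) were highest in HCs, PAX6 stood at 322 ± 56.6 CPM in HCs and 715 in ACs, and RORB at 3025 ± 567 CPM in HCs and 3829 in Müller cells. PROX1, TFAP2B and PAX6 were among the markers that named the classes, so their order over classes is no result.  The LIM cofactors SSBP2 (581 ± 114 CPM), SSBP3 (180 ± 49.3 CPM), LMO4 (65.3 ± 23.8 CPM) and LDB2 (11.8 ± 13.6 CPM) were counted in HCs, and all 4 were highest in other classes. Of the LIM-homeodomain relatives, ISL1 was at 71.7 ± 27.2 CPM in HCs and 275 in BCs, and ISL2 at 0.709 ± 2.26 CPM in HCs and 32.7 in cones.

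No member passed a test between the stages. The UMI sums of a class were compared by the quasi-likelihood test of edgeR in a model of all 3 stages with the study's sex, with adjustment over all features tested in the class. Of 19 combinations of member and class that had enough counts, 0 passed an adjusted p of 0.05 in Senile against Infancy, where 1.3% of the features of all 9 classes did, 0 in Mature against Infancy (0.828%) and 0 in Senile against Mature (0.0235%). The smallest adjusted p-values from edgeR were 0.606, 0.339 and 0.643. At an unadjusted p under 0.05, 1, 2 and 1 combinations were found, and DESeq2 called 0 in each comparison. In HCs ONECUT1 changed by -0.31 ± 0.18 (log2 fold change ± SE) from Infancy to Senile (edgeR adjusted p = 0.681) and by 0.00 ± 0.17 from Infancy to Mature (edgeR adjusted p = 1.00), and ONECUT2 by 0.07 ± 0.22 and 0.23 ± 0.22 (edgeR adjusted p = 0.994 and 0.775). In HCs 0.488% of 4512 features passed in Senile against Infancy and 0.266% in Mature against Infancy. The HC means per stage were 625 ± 118, 638 ± 183 and 548 ± 126 CPM for ONECUT1 and 316 ± 131, 369 ± 129 and 352 ± 96.5 CPM for ONECUT2 in Infancy, Mature and Senile (n = 5 each), with overlapping groups.

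LHX1 and ONECUT3 had too few counts in HCs to enter the filtered fit. LHX1 means were 30.2 ± 13.9, 35.3 ± 12.3 and 17.2 ± 7.89 CPM in Infancy, Mature and Senile. Without the filter its log2 fold change from Mature to Senile was -1.28 ± 0.45 (edgeR unadjusted p = 0.00471, adjusted p = 0.82), and 25.9 CPM in Senile 3 overlapped with 23.9 CPM in Mature 1. ONECUT3 means were 18.2 ± 25.03, 22.3 ± 13.7 and 15.4 ± 13.0 CPM, and its change from Mature to Senile without the filter was -1.21 ± 0.52 (edgeR unadjusted p = 0.0202, adjusted p = 0.939).

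**Figure D4:**
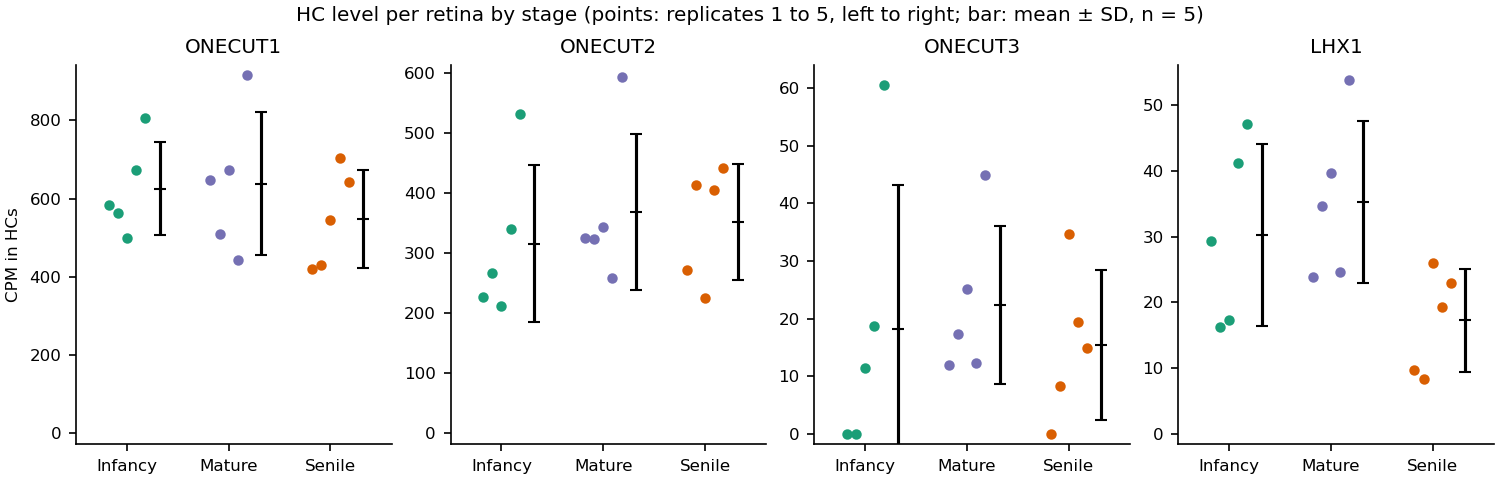
CPM of ONECUT1, ONECUT2, ONECUT3 and LHX1 in HCs by stage, with 1 point per retina (replicates 1 to 5 from left to right) and the mean ± SD beside it; each panel has its own scale, and the Infancy SD bar of ONECUT3 runs below 0. The stages overlapped in all 4 genes, and the lowest LHX1 values, 8.28 and 9.74 CPM, were in Senile retinas.

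Within the filtered fit the 4 combinations with an unadjusted p under 0.05 all lay outside HCs and were LHX4 in cones (0.46 ± 0.19 from Infancy to Mature, edgeR adjusted p = 0.339), LHX4 in RGCs (1.15 ± 0.54 from Infancy to Mature, adjusted p = 0.445, and -1.23 ± 0.56 from Mature to Senile, adjusted p = 0.771), and ONECUT1 in ACs (0.60 ± 0.27 from Infancy to Senile, adjusted p = 0.606). LHX4 in cones stood at 42.5, 48.0, 40.5, 43.8 and 52.4 CPM in the Infancy retinas, at 98.7, 58.8, 67.7, 36.9 and 63.4 CPM in the Mature retinas and at 74.97, 53.4, 71.5, 45.9 and 55.9 CPM in the Senile retinas. The Infancy values were close together, and Mature 4 lay below all of them. LHX2 in Müller cells changed by -0.01 ± 0.19 from Infancy to Senile (edgeR adjusted p = 1.00), LHX9 in ACs by 0.19 ± 0.18 (adjusted p = 0.951) and LHX4 in BCs by 0.09 ± 0.18 (adjusted p = 1.00). The gene lists gave no call either: of 8 combinations of LIM-homeodomain relatives and class, 41 of LIM cofactors, 22 of cut-homeodomain relatives and 54 of specification genes, edgeR called 0 in each of the 3 comparisons (up to 5 at an unadjusted p under 0.05, and 0 with DESeq2).

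**Figure D5:**
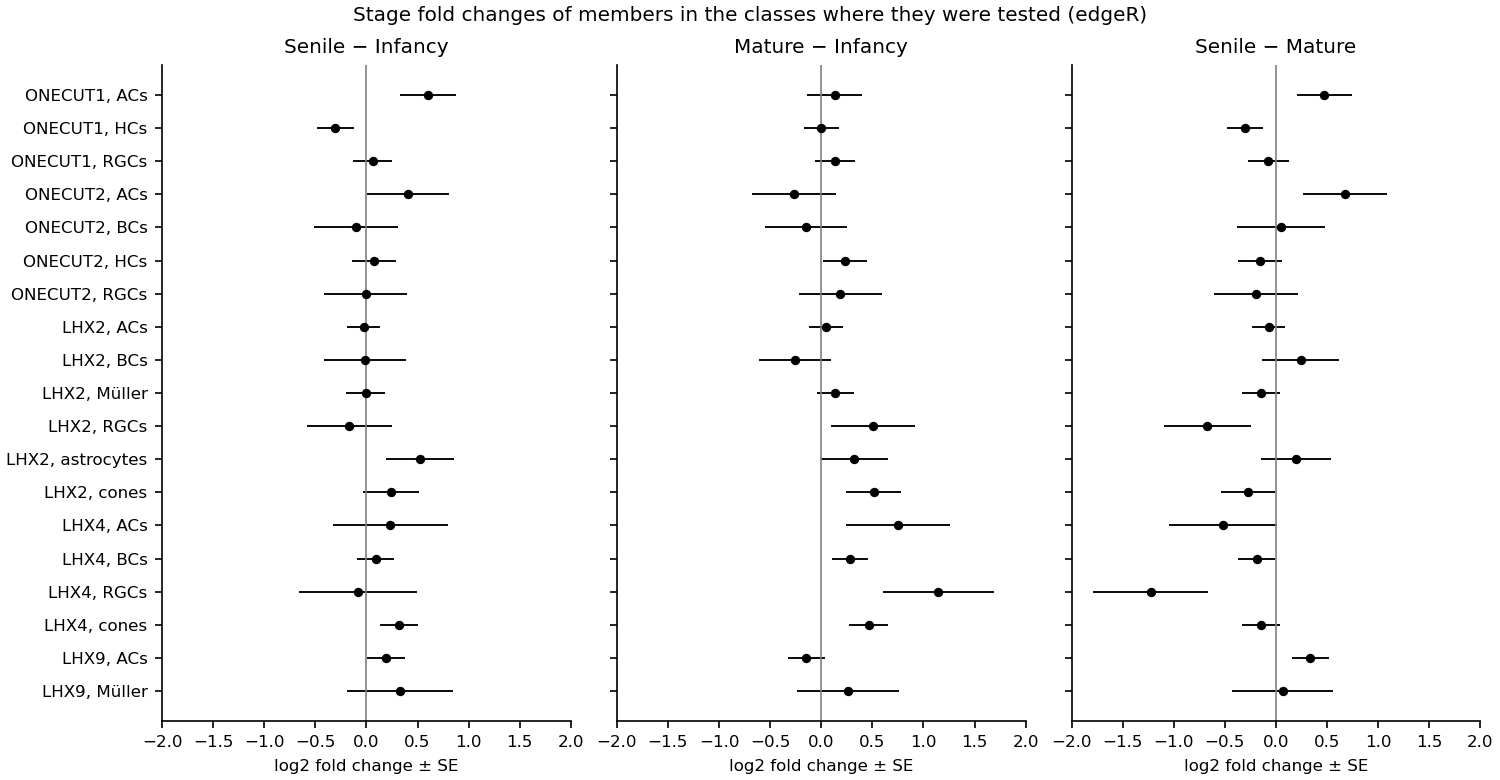
Log2 fold change ± SE from edgeR for the 19 combinations of member and class, in Senile minus Infancy, Mature minus Infancy and Senile minus Mature. All values lay between -1.23 and 1.15 and 0 passed an adjusted p of 0.05.

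In whole retinas, where fewer cells of a type and less RNA per cell cannot be told apart, 0 of 7 members passed in any comparison (edgeR; 1.28% of 28700 features in Senile against Infancy, 0.714% in Mature against Infancy and 0% in Senile against Mature; 0 members at an unadjusted p under 0.05, and 0 with DESeq2). ONECUT1 ran from 3.65 CPM in Mature 4, the retina with 16 HC nuclei, to 30.7 CPM in Mature 3, and its change from Infancy to Senile was 0.40 ± 0.36 (edgeR adjusted p = 0.886). In Mature 4 the doublet filter removed 56 nuclei of the HC cluster and 37 of the RGC clusters, which left 16 and 30. These CPM are of kept nuclei, and the part of the filter in the low value was not tested.

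A split that did move with several members was the version of Cell Ranger in the file headers. It was 6.1.2 for 7 retinas (Infancy 1 to 3, Mature 1 and 2, Senile 1 and 2) and 7.0.1 for the other 8. ONECUT2 in ACs was 3.04 ± 0.86 CPM (1.96 to 4.64) in the former and 9.38 ± 5.47 CPM (4.86 to 19.3) in the latter, with no overlap. In ACs 3.29% of the 12415 features with a mean of at least 5 CPM lay higher in every 7.0.1 retina than in every 6.1.2 retina, and 1.98% lower, and ONECUT2 was the only member among them. In BCs it was 7.62 ± 1.12 CPM (6.19 to 8.96) and 21.6 ± 13.2 CPM (8.45 to 46.3), and in HCs 292 ± 68.9 and 392 ± 127 CPM. Levels of the copy ONECUT2li1 by version are not given here. In Infancy BCs, with both versions, the copy ran from 21.8 to 28.1 CPM and ONECUT2 from 6.22 to 46.3 CPM. In ACs the copy ran from 4.22 to 8.29 CPM in Infancy and from 2.77 to 22.0 CPM in Senile. ONECUT3 in HCs was 7.01 ± 7.07 CPM in the 6.1.2 retinas and 28.8 ± 16.8 CPM in the 7.0.1 retinas. LHX1 and ONECUT1 in HCs, given per retina above, also leaned this way. In Infancy and in Senile every 7.0.1 value of these genes lay above every 6.1.2 value, while in Mature the versions overlapped. LHX9 in ACs went the other way, with 32.8 ± 3.71 CPM (27.8 to 37.4) and 22.9 ± 5.45 CPM (17.8 to 31.7), and LHX2 in Müller cells was 81.2 and 81.1 CPM. The 7.0.1 libraries were also deeper, with median UMIs per nucleus of 2268 to 5611 against 1461 to 3068. Both versions occurred in all 3 stages, but all 7 retinas of 6.1.2 are recorded as female and 6 of the 8 of 7.0.1 as male, so that version nearly coincides with the recorded sex in the stage model. The part of version, depth and recorded sex in these levels was not tested. Within the 6.1.2 retinas HCs exceeded RGCs in ONECUT1 by 3.02 and BCs in ONECUT2 by 5.06 on the log2 scale, and within the 7.0.1 retinas by 3.16 and 4.24. ISL1+ HC nuclei were lower in ONECUT1 by 0.68 over 3 retinas and by 0.49 over 5, and LHX4 was lower in ON than in OFF nuclei by 1.00 in both.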

How the data were processed

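The authors mapped reads with Cell Ranger (6.1.2 or 7.0.1 per the file headers) against TS_3.0 and deposited raw UMI counts for each barcode. For the 7 retinas with 6.1.2 in the header the submitters' processing notes give 5.0.1. Whether intron reads were counted, which decides how much pre-mRNA of a nucleus is seen, is not given in the sources used here. The labels and the study's methods name different versions of the chemistry. Counting is 3' based, so levels were not compared between genes.

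Barcodes needed over 200 genes, fewer than 6000, and a mitochondrial share below 5%, and doublets called from simulated neighbours (8 per 1000 for every 1000 nuclei) were removed. A marker listed only as numbered copies was read from its copy with the most counts. Counts were log-normalized, 2000 variable genes without the 8 members were reduced to 30 components, corrected by retina, and clustered with the Leiden method (20 neighbours, resolution 3; 173 clusters). Clusters were named from marker lists. A name needed a scaled marker score of at least 0.2, a second class at no more than 0.75 of it, at least 3 markers at 20 CPM, at least 75 nuclei and at most 40% doublets, and clusters whose leading genes went against the name stayed unnamed. Clusters that reached a score of 0.45 for markers of other tissue (pigment epithelium, vessels or oligodendrocytes) also stayed unnamed. These thresholds were chosen with the clusters in view. Leading genes identify clusters and were chosen after their values were seen.

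UMIs were summed per retina and class or gate with at least 10 nuclei, and class and gate levels compared within retinas as log2(CPM + 1), with a pseudocount of 1 CPM. The smallest p that 15 retinas allow is 6.1e-05. The OFF gate was designed on GRIK1 and read from GRIK1li1 instead, and ON nuclei exclude those with at least 5 of its UMIs. Stages were compared with edgeR 4.0.16 (TMM, filterByExpr, quasi-likelihood F-test, R 4.3.3) and with DESeq2 1.42.0 as an alternative, with sex from the study's sample overview. Other steps used igraph 0.11.9, scipy 1.17.1, numpy 2.4.6 and pandas 2.3.3 in Python 3.11.15. The test procedures were tested on simulated data. Intervals and limits for a count of 0 (3 UMIs, over the pooled retinas) cover counting error only. The members, gene lists and markers were chosen with earlier results of these data known. The text names the 8 members, up to 4 genes per list with the highest mean in HCs, and the 3 genes with the highest r to each member. Columns of other samples were not present in the matrices (0 unused).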

Additional observations from a re-analysis of the deposited data

Results flagged for a closer look

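Within groups of 5 retinas, 48 combinations of member, class and stage were examined for a retina whose gap to its nearest neighbour exceeds Dixon's 95% critical value, which chance exceeds in about 1 of 20 groups. 4 combinations, from 3 retinas, did, all for ONECUT2. The share of other features that exceed this value was not counted. In HCs, Mature 5 stood at 592 CPM (198 UMIs in 41 nuclei) against 258 to 344 CPM in the other Mature retinas. In BCs, Infancy 4 stood at 46.3 CPM (376 UMIs) against 6.22 to 16.6 CPM, and in ACs the same retina stood at 16.6 CPM (201 UMIs) against 2.42 to 6.52 CPM. In RGCs, Mature 3 stood at 14.3 CPM (51 UMIs) against 5.01 to 6.97 CPM. All 3 retinas are among the 8 whose headers give Cell Ranger 7.0.1. Whether the version has a part in this was not tested.

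Features next to the members, whose own tests are not reported here, also had counts in HCs. ONECUT2li1 was at 588 CPM (3146 UMIs) in HCs and 35.4 CPM in BCs, the next class. In BCs it stood at 25.8 ± 2.56 CPM (21.8 to 28.1) in Infancy and 39.1 ± 6.67 CPM (28.8 to 45.2) in Mature. In Senile it stood at 41.2 ± 7.20 CPM (31.9 to 49.5), so the Infancy values lay below those of both later groups. The stage counts for members leave this copy out, and the share of features that separate in this way was not counted. ONECUT2-AS-1, an antisense feature, was at 5.27 CPM (29 UMIs) in HCs and 0.308 CPM in astrocytes, the next class. ONECUT1-AS-1 was at 0.382 CPM (4 UMIs) in HCs and at 0 in every other class. Whether strand was used in the counting is not given in the sources used here, so the antisense values are uncertain to that extent.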

How the results depend on the processing

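The number of class differences past the threshold, 12 of 64, was 20 when single nuclei were gated from the markers in place of clusters and 0 over the 7 retinas of Cell Ranger 6.1.2, where the smallest possible p is 0.0156 before adjustment. Leaving out single retinas gave 11 to 13. The number of differences between subtype gates, 9 of 40, was 3 with at least 30 nuclei per retina, where only 2 retinas were left for the HC and the glycinergic and GABAergic gates, 0 over the 6.1.2 retinas and 0 over the 7.0.1 retinas, where the smallest p before adjustment is 0.00781 in gates with 8 retinas and 0.0625 in the HC gates with 5. Leaving out single retinas gave 7 to 10. The share of all features past the threshold in these class and gate tests was not counted. Shares were counted only for pairs in which every retina went the same way. No class or gate difference examined under these alternatives changed its direction. Kept doublets raised the class differences past the threshold to 15 and the gate differences to 12. The gains were LHX2 between Müller cells and astrocytes (0.64, which also passed without Senile 2 at 0.69), LHX4 between microglia and rods (1.22) and between HCs and astrocytes (1.05), LHX1 (-3.22) and ONECUT3 (-2.42) in H2 against H1, and ONECUT2 in CHAT+ against other ACs (-1.04).

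Stage comparisons gave 0 calls for members under every alternative run, leave-one-out fits included (0 to 0), with a lowest adjusted p of 0.0868 without Mature 4 (edgeR). Y-linked RNA in place of the study's sex, chosen after seeing the data, also gave 0 calls (lowest edgeR adjusted p = 0.455). With at least 30 nuclei per retina ONECUT1 in HCs changed by -0.52 from Mature to Senile (edgeR adjusted p = 0.315).

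Replicate numbers are shared between the stages, and the labels name no shared animal or batch. In all 3 stages numbers 1 and 2 are Cell Ranger 6.1.2 and recorded female and numbers 4 and 5 are 7.0.1 and recorded male, while number 3 holds both versions, so the numbers largely follow version and recorded sex. Of 15 pairs of same-numbered retinas 13 correlated above 0.1 in their deviations from the stage means over 5027 genes (-0.62 to 0.77, with the 2 negative pairs both holding Mature 3), and 3 of 15 retinas correlated best with their own number. A replicate block in place of sex gave 0 calls and a change of ONECUT1 in HCs of -0.28 from Infancy to Senile.

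After the doublet filter HCs held 16 nuclei in Mature 4, and LHX1, ONECUT3 and LHX9 had 162, 107 and 5 UMIs in HCs, so differences of a few CPM were not detectable there.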
